A study of Mus musculus with 6 samples.

Results

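Metallothioneins and the genes that sense and move zinc were followed in livers of mice on a high-fat diet. The set holds 7 genes of the 54600 in the table. They are the metallothionein genes Mt1 and Mt2, the zinc-sensing transcription factor gene Mtf1, the exporter genes Slc30a1 and Slc30a10, and the importer genes Slc39a4 and Slc39a14. Each was taken by its mouse symbol, and each symbol had 1 identifier in the table. The set was chosen by what the genes do, with the KO and WT TPM values of these same libraries in view, so the differences between the labels are given for these 7 genes as a description and support nothing further.

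RNA was sequenced from whole liver in 2 groups of 3 libraries, labelled WT for wild type and KO for a knockout of HIF-2alpha restricted to hepatocytes. All 6 came from mice kept on the high-fat diet for 16 weeks, so no library shows the liver on another diet. The strain, sex and age of the animals, the driver of the hepatocyte deletion, and whether each library is a separate animal are not stated in the labels. The p-values therefore measure the spread between these libraries, which may be technical. Values are TPM, an abundance that allows for transcript length and has the same sum in each library. TPM keeps no read totals, so sequencing depth is unknown and no counting error can be given.

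Metallothioneins are small, cysteine-rich proteins that bind zinc and copper and buffer them in the cell. The transcription factor MTF-1 binds metal response elements when free zinc rises, and it drives the metallothionein genes and the exporter gene Slc30a1. Glucocorticoids and interleukin-6 also induce metallothioneins in liver. Proteins of the SLC30 family move zinc out of the cytosol, and those of the SLC39 family move it in. SLC30A10 and SLC39A14 carry manganese as well, and SLC39A14 is the importer through which the inflamed liver takes up zinc.

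The gene of HIF-2alpha, Epas1, did not fall under the KO label, with 23.8, 26.0 and 21.0 TPM under WT and 26.6, 35.1 and 29.4 under KO. These values cover every cell of the liver and the whole gene, so they do not check a deletion in hepatocytes. Directions below are therefore between libraries as labelled. Hepatocyte markers dominated every library, with 6 matched genes such as Alb summing to between 60890 and 86380 TPM. Per library, 11013 to 11708 genes had 1 TPM or more, and 11440 entered the test. Their median difference was +0.09 on the log2(TPM + 1) scale, and 74.5% of them lay above 0. Dividing each library by its median ratio to the others moved that median to -0.002, so a difference near +0.1 is that of the ordinary gene here.

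Mt2 and Mt1 lie next to each other on the plus strand of chromosome 8, and the promoters of 4 of the 7 genes are printed because they share the metal response core. In mm10, Mt2 spans 94172664 to 94173568 and Mt1 spans 94179082 to 94180327, with 5513 bases between them. The sequences are the 250 bases before the RefSeq start (GRCm38.p6, plus strand): chr8:94178839-94179088 for Mt1, chr8:94172368-94172617 for Mt2, chr1:191906531-191906780 for Slc30a1 and chr1:185454598-185454847 for Slc30a10. Capitals mark the letters TGCACNC or TGCGCNC, the core of the metal response element, found on either strand.
Mt1: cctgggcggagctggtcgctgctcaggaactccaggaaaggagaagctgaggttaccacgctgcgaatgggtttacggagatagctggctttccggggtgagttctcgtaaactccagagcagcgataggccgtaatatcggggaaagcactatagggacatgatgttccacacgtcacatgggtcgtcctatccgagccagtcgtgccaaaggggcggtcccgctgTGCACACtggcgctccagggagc
Mt2: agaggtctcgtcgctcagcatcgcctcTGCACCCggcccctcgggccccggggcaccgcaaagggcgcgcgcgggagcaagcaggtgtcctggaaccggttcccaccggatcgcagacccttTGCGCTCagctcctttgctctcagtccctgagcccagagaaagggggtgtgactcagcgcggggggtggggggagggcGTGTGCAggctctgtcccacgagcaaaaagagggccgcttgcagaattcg
Slc30a1: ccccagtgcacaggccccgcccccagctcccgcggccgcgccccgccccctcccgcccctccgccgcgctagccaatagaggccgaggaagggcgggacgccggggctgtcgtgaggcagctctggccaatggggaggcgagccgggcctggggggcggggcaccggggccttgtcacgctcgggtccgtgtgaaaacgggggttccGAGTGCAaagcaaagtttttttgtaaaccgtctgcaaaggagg
Slc30a10: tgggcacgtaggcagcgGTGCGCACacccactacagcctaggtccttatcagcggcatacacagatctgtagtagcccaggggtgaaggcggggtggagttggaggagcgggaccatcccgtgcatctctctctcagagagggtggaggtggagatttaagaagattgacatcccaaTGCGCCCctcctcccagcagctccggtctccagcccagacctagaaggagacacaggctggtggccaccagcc

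Of the 7 genes, 5 had a RefSeq promoter, and 4 of these 5 held the metal response core upstream of the start, whereas 21.4% of all 32851 promoters did. Mt1 had 1 upstream match, TGCACAC at -23 to -17, and 2 more in the first 50 transcribed bases, at 3 to 9 and 21 to 27. The window does not reach the start of 2 other Mt1 transcripts in GENCODE M21, at 94179211 and 94179241. Mt2 had 3 upstream matches, at -223 to -217, -128 to -122 and -50 to -44, and 1 after the start at 5 to 11. The RefSeq start of Mt2, 94172618, lies before its GENCODE span from 94172664, and so does the match at 5 to 11. The window does not reach the start of another Mt2 transcript, at 94172860. Slc30a10 also had 3 upstream matches, of which 2 overlap on opposite strands between -233 and -226, with the third at -73 to -67. Matches of 3 or more were found in 1.26% of promoters. Slc30a1 had 1 upstream at -43 to -37 and 1 after the start at 31 to 37, and Mtf1 had none in this window.

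The core of the hypoxia response element, ACGTG or GCGTG on either strand, was upstream in the same 4 genes and in 38.6% of all promoters. It overlapped a metal response match in Mt2, where GCGTG lies at -52 to -48. The antioxidant response core TGACNNNGC was upstream in Mt2 at -79 to -71 and in Slc30a1 at -82 to -74, where it overlaps the hypoxia core at -75 to -71, and in 10.2% of promoters. The E box CACGTG, which contains the first hypoxia core, was in none of the 5 windows and upstream in 6.02% of promoters. A match is a run of letters and was not tested for binding. Slc39a4 and Slc39a14 had no entry.

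**Figure D1:**
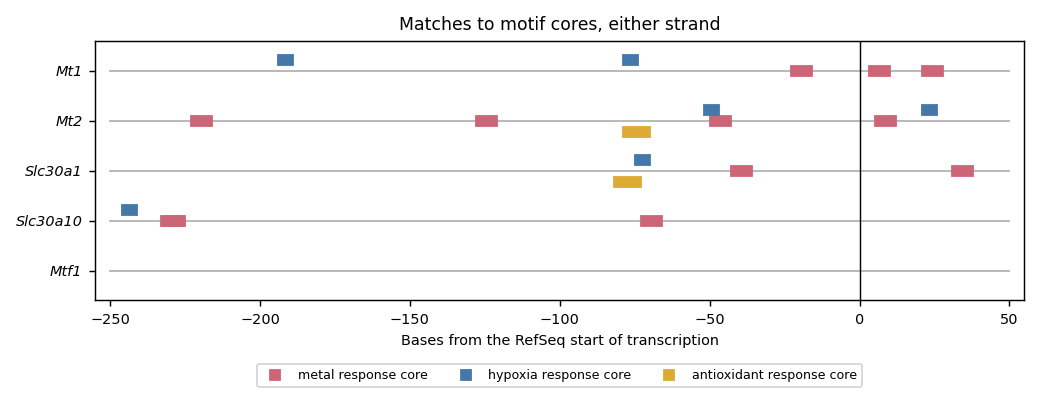
Matches to 3 motif cores in the promoter windows of 5 genes, drawn by distance in bases from the RefSeq start, on either strand. Metal response matches stand in Mt1, Mt2, Slc30a1 and Slc30a10, and the line of Mtf1 is empty.

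Mt1 and Mt2 were the members with the widest difference between the labels, and both also varied widely within a label. Mt1 was at 12.3, 22.6 and 4.32 TPM in WT libraries 1, 2 and 3, and at 22.9, 50.4 and 34.5 TPM in KO libraries 1, 2 and 3. The lowest KO library stood just above the highest WT library, so the groups did not overlap, but the margin was 22.9 against 22.6 TPM. WT averaged 13.1 ± 9.18 TPM and KO 35.95 ± 13.8 TPM (SD, n = 3 each). On the log2(TPM + 1) scale the difference was +1.57 with a standard error of 0.53, and its 95% interval in limma ran from +0.34 to +2.81. Within WT the highest library was 5.24 times the lowest, and within KO it was 2.20 times.

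Mt2 was at 8.99, 8.38 and 2.25 TPM in WT libraries 1 to 3 and at 9.65, 19.9 and 23.7 TPM in KO libraries 1 to 3. Again every KO library was above every WT library, and KO library 1 was near WT libraries 1 and 2. WT averaged 6.54 ± 3.73 TPM and KO 17.7 ± 7.27 TPM (SD, n = 3 each), which is a log2 difference of +1.39 with a standard error of 0.49 and a 95% interval from +0.25 to +2.53. Libraries numbered 1 differed least, with KO over WT at 1.07, and those numbered 3 most, at 10.55.

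Groups that do not overlap with KO above WT made up 8.23% of all tested genes, and Mt1 and Mt2 were the 2 members of 7 that did so. After median-ratio scaling the share was 3.44%. Scaled Mt1 values then overlapped, with 23.1 in WT library 2 against 21.6 in KO library 1, while those of Mt2 did not. By size of the difference Mt1 ranked 8 and Mt2 ranked 14 of 11440 genes from the highest. By pooled standard deviation within the labels, 0.86 and 0.79 on the log2 scale, they stood at the percentiles 97.9 and 97.4. Leaving out WT library 3 brought the differences to +0.99 for Mt1 and +0.87 for Mt2, and leaving out both libraries numbered 3 brought them to +0.99 and +0.62.

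**Figure D2:**
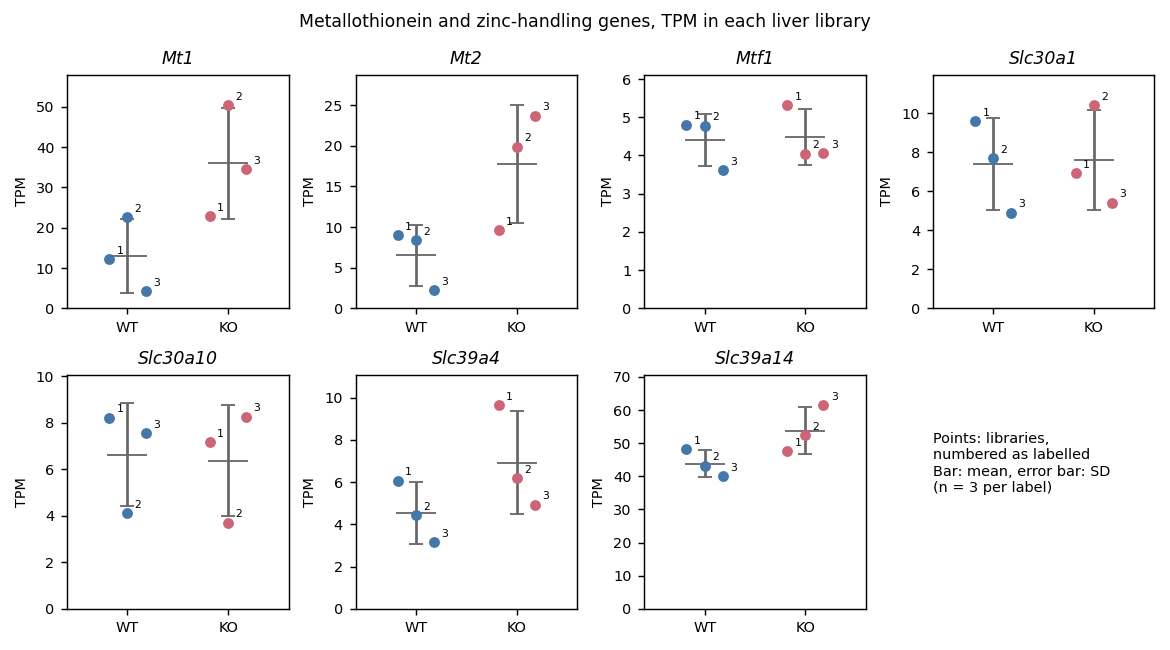
TPM of each of the 7 genes in the 3 WT and 3 KO libraries, numbered as labelled, with mean and SD (n = 3 per label). Every KO point of Mt1 and Mt2 lies above every WT point, narrowly for KO library 1, and the other 5 genes overlap.

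**Figure D3:**
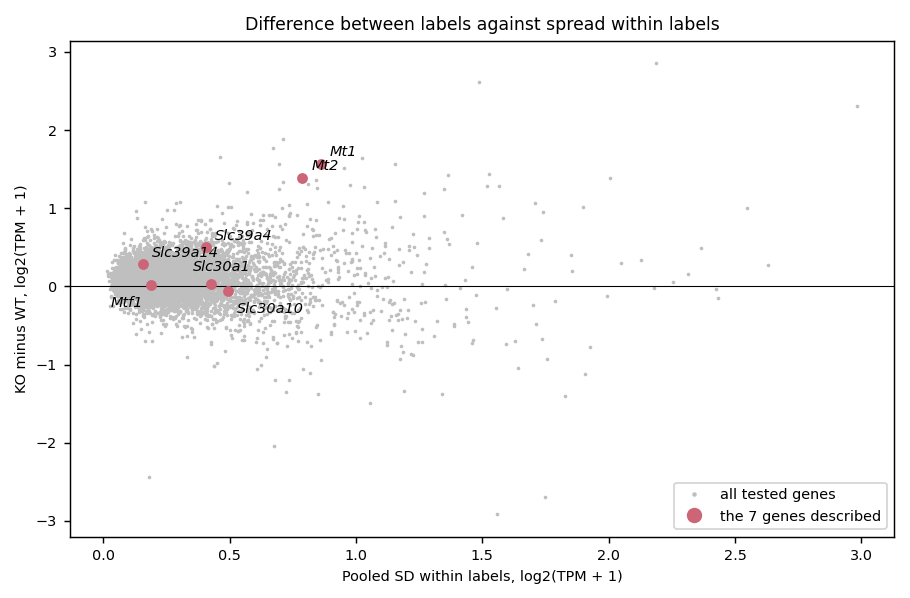
Difference KO minus WT on the log2(TPM + 1) scale against the pooled SD within the labels, for 11440 tested genes (grey) and the 7 genes described (red). Mt1 and Mt2 combine a difference of +1.57 and +1.39 with an SD of 0.86 and 0.79. The other 5 have differences from -0.06 to +0.50 and SDs from 0.16 to 0.49.

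Mt1 exceeded Mt2 in all 6 libraries, by 1.37 to 2.70 times, while their sum ranged more widely, from 6.57 TPM in WT library 3 to 70.3 TPM in KO library 2. Their annotated transcripts share no identical run above 20 bases. No source used here states whether the authors counted reads that fit both genes. Of the remaining metallothionein genes, Mt4 was listed at 0 in every library, and Mt3, the form best known from brain, was at 0.42 TPM in KO library 3 and listed at 0 in the others.

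Of 6669 named genes with a mean of at least 5 TPM, Mt2 had the profile nearest to that of Mt1. Likeness was measured as the root mean square difference between log2(TPM + 1) values over the 6 libraries, each gene centred on its own mean. This was 0.37 for Mt2, against a root mean square of 1.05 for Mt1 around its own mean. The next were Tut4, a terminal uridylyltransferase, at 0.58, the actin-severing protein gelsolin (Gsn) at 0.62, Nrep at 0.62, the nucleotide receptor gene P2ry1 at 0.67 and the glycosyltransferase gene B3gnt2 at 0.67. Each of these 6 had its lowest value in WT library 3, as 41.6% of tested genes did. They were picked for likeness to Mt1, which was farthest from its own mean there, so this low comes with the choice. Nrep, at 6.77 TPM in WT library 3, was nearly as low in KO library 1 at 7.59. All 6 libraries share the scaling to one total, and this list is a description.

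**Figure D4:**
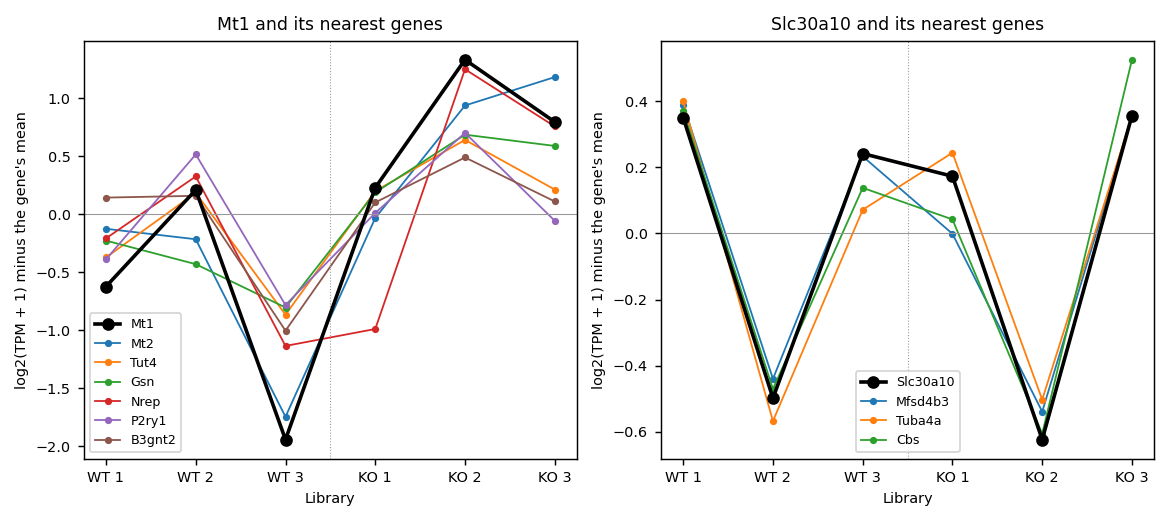
Centred log2(TPM + 1) of Mt1 with its 6 nearest genes (left) and of Slc30a10 with its 3 nearest (right) in each library; lines only join the values of a gene. Mt1 and Mt2 fall together in WT library 3 and stand high in KO libraries 2 and 3, whereas Slc30a10 is low in the libraries numbered 2 of both labels.

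Mtf1, the factor that drives metallothionein transcription (chromosome 4, 124802104 to 124849800), was nearly level. It was at 4.81, 4.78 and 3.62 TPM in WT libraries 1 to 3 and at 5.32, 4.05 and 4.06 TPM in KO libraries 1 to 3, and the groups overlapped in part. Its log2 difference was +0.02 with a 95% interval in limma from -0.36 to +0.40, and median-ratio scaling turned it to -0.07. The library with the highest Mtf1, KO library 1, had the lowest Mt1 and Mt2 of its label. WT library 3 had the lowest Mtf1, Mt1 and Mt2 of all libraries. After median-ratio scaling Mtf1 was lowest in KO library 2, at 3.74 against 4.12 in WT library 3, while Mt1 and Mt2 stayed lowest in WT library 3.

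Slc30a1, the plasma membrane zinc exporter and an MTF-1 target like the metallothioneins (chromosome 1, 191906767 to 191913247), was nearly level between the labels. It was at 9.60, 7.71 and 4.90 TPM in WT libraries 1 to 3 and at 6.94, 10.4 and 5.43 TPM in KO libraries 1 to 3. The libraries numbered 3 were the lowest of both labels, although KO library 3 had the highest Mt2 of all. Like Mt1, Slc30a1 was highest in KO library 2 and lowest in WT library 3. After median-ratio scaling its lowest value was in KO library 3, at 5.54 against 5.58 in WT library 3. Among the 6669 genes it ranked 1139 in likeness to Mt1, with a root mean square difference of 0.94. The difference between labels was +0.03 (95% interval -0.62 to +0.68), which median-ratio scaling turned to -0.06 and leaving out WT library 3 to -0.20.

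Slc30a10, which exports manganese from hepatocytes (chromosome 1, 185454848 to 185468762), was low in the libraries numbered 2 of both labels. Its values were 8.22, 4.12 and 7.55 TPM in WT libraries 1 to 3 and 7.15, 3.69 and 8.26 TPM in KO libraries 1 to 3, and the other 4 lay at 7.15 or above. The difference between labels was -0.06 (95% interval -0.80 to +0.68), and it was positive without KO library 2 (+0.23), without WT library 1 (+0.10) and without WT library 3 (+0.04). The 3 genes with the nearest profile were Mfsd4b3 (0.08), the tubulin gene Tuba4a (0.10) and Cbs (0.10), which encodes cystathionine beta-synthase of the transsulfuration pathway. Cbs was at 139.6 and 127 TPM in the libraries numbered 2 and at 199.7 to 279 in the other 4. Among the 6669 genes Mt1 ranked 6635 in likeness to Slc30a10. This measure also depends on how widely a gene varies, and Mt1 varied more around its mean (root mean square 1.05 against 0.40). The rank therefore does not show by itself that their patterns differ.

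The importer gene Slc39a4, known for zinc uptake in the intestine (chromosome 15, 76612383 to 76617384), was at 6.08, 4.44 and 3.15 TPM in WT libraries 1 to 3 and at 9.64, 6.18 and 4.94 TPM in KO libraries 1 to 3. The groups overlapped, yet the KO library was higher within each number, by 1.59, 1.39 and 1.57 times. KO above WT in all 3 numbers was found in 26.9% of tested genes. The difference was +0.50 with a standard error of 0.27, which fell to 0.12 with the replicate number as a block. Without KO library 1 it was +0.27 and without WT library 3 it was +0.31. The enterocyte markers Alpi, Sis and Lct were listed at 0 in all 6 libraries, Vil1 did not pass 0.165 TPM, and Fabp2, the remaining marker, was at 98.3 to 235.6 TPM.

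Slc39a14, which imports zinc, manganese and iron not bound to transferrin (chromosome 14, 70303469 to 70351425), was the most abundant of the 7 genes in every library. It was at 48.2, 43.2 and 40.0 TPM in WT libraries 1 to 3 and at 47.6, 52.4 and 61.4 TPM in KO libraries 1 to 3. KO libraries 2 and 3 stood above all WT libraries and KO library 1 did not. WT averaged 43.8 ± 4.10 TPM and KO 53.8 ± 7.02 TPM (SD, n = 3 each), and the difference was +0.29 (95% interval -0.04 to +0.62). Median-ratio scaling brought it to +0.18, and it was +0.19 without KO library 3. Below Slc39a14, Mt1 was above Mt2, Slc39a4 and Mtf1 in all libraries and above Slc30a1 and Slc30a10 in 5 of 6, with WT library 3 the exception, while Mt2 exceeded Slc30a1 in 4 of 6 and Slc30a1 exceeded Slc30a10 in 3 of 6. Slc30a10 in turn exceeded Slc39a4 in 3 of 6 and Slc39a4 exceeded Mtf1 in 4 of 6.

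None of the 7 genes passed a Benjamini-Hochberg adjusted p below 0.05 in limma over all tested genes, where 0.00874% of genes, a single one, did. Before adjustment 2 of 7 were higher in KO at p below 0.05, and 2.76% of all genes were. With the replicate block these were 3 of 7, Mt1, Mt2 and Slc39a4, and 5.26% of all genes, again with none past the adjusted threshold. The exact two-sided permutation test of a single gene cannot go below 0.1 with 3 libraries against 3. The median difference of the 7 was +0.29 beside +0.09 for all genes, and it was +0.18 beside -0.002 after median-ratio scaling. WT library 3 held the lowest value of 6 of the 7 genes, and of 41.6% of tested genes. Its median-ratio factor was also the lowest, at 0.878 against 0.979 to 1.081 in the others. After that scaling Mt1, Mt2 and Slc39a4 were still lowest in WT library 3. Mtf1 was then lowest in KO library 2, Slc30a1 in KO library 3 and Slc39a14 in WT library 2.

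Of the 20 other members of the SLC30 and SLC39 families, 13 reached the level required for the test and 0 passed the adjusted threshold. Slc30a9 and Slc30a4 had groups that did not overlap, with KO higher, beside the 8.23% of all genes given above, and after median-ratio scaling those of Slc30a9 overlapped while those of Slc30a4 did not. Slc30a9, a mitochondrial zinc exporter, was at 23.2, 23.6 and 23.2 TPM in WT and 30.7, 25.9 and 29.1 TPM in KO, a difference of +0.28 with a standard error of 0.12. It was the 1 gene of the 13 with an unadjusted limma p below 0.05 (0.0458, adjusted 0.993), and 0 of 13 had one under median-ratio scaling or quantile normalization. Slc30a4 was at 2.60 ± 0.280 and 3.29 ± 0.304 TPM (SD, n = 3 each). Slc30a7, which loads zinc into the secretory pathway, was at 3.70 ± 0.990 and 5.42 ± 1.72 TPM.

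Besides Slc30a9, the most abundant of these transporters were Slc39a7, Slc39a1 and Slc39a9, whose groups overlapped. Slc39a7, which releases zinc from the endoplasmic reticulum, was at 41.5 ± 7.94 TPM in WT and 37.8 ± 7.58 in KO (SD, n = 3 each). The plasma membrane importer gene Slc39a1 was at 30.3 ± 4.59 and 33.0 ± 1.82, and Slc39a9 at 15.8 ± 0.753 and 15.65 ± 1.78 TPM. Over the 13 the differences ran from -0.13 to +0.43 with a median of +0.13, and 10 were above 0. After median-ratio scaling the median was +0.02. The 7 untested genes, among them the pancreatic islet transporter Slc30a8 and the acinar importer Slc39a5, stayed at or below 1.24 TPM in every library.

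**Figure D5:**
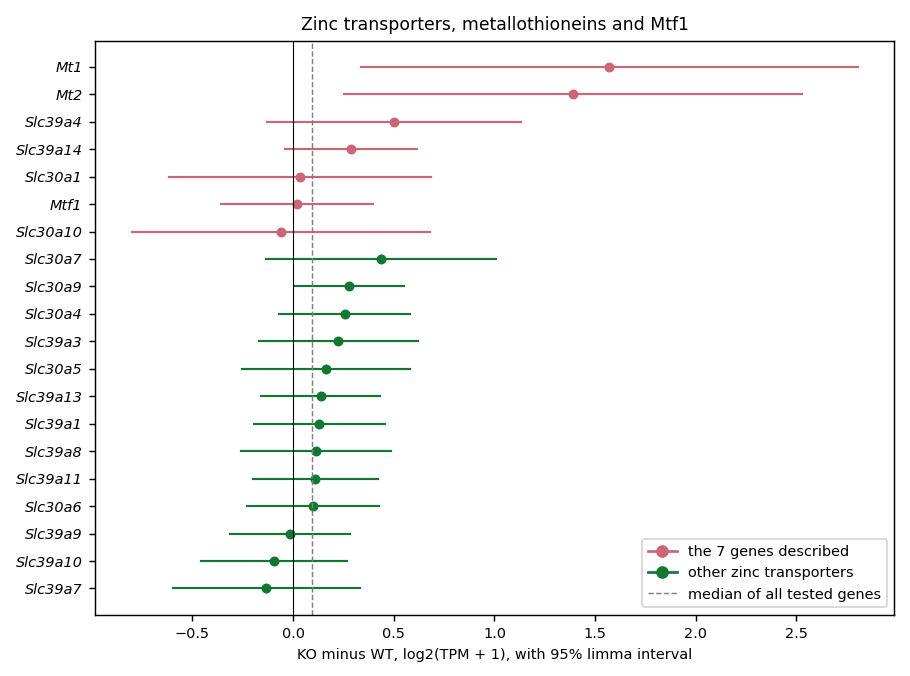
Difference KO minus WT on the log2(TPM + 1) scale with its 95% limma interval for the 7 genes described (red) and 13 other tested zinc transporters (green). The intervals of Mt1 and Mt2 start at +0.34 and +0.25, and all others but that of Slc30a9 include 0.

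In 3 lists on manganese, copper and zinc enzymes, 0 genes passed the adjusted threshold in limma or had an unadjusted p below 0.05. Of 7 manganese-related genes, 6 lay above 0 with a median of +0.05. Glul, the glutamine synthetase of pericentral hepatocytes and a manganese enzyme, went the other way at 463 ± 49.2 and 391 ± 53.6 TPM (SD, n = 3 each). Its groups did not overlap, with KO lower, as in 0.857% of all genes. For the 10 copper genes the median was +0.09, and the copper and zinc enzyme gene Sod1 was at 1121 ± 174.8 and 1121 ± 90.5 TPM. The 12 zinc enzymes had a median of -0.01, with Bhmt, the betaine-homocysteine methyltransferase, at 1249, 1210 and 1986 TPM in WT and 1142, 1049 and 1073 in KO, also without overlap and lower in KO. Under median-ratio scaling 1 of 7, 3 of 10 and 2 of 12 lay above 0 in these lists, against 6, 9 and 6 without it.

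Known inducers of metallothioneins were read through their other targets, with 0 genes past the adjusted limma threshold. Of 14 tested glucocorticoid-induced genes, 11 were above 0 with a median of +0.12, beside 74.5% and +0.09 for all tested genes. After median-ratio scaling 10 were above 0 with a median of +0.02, and the members disagreed. Fkbp5, a chaperone of the glucocorticoid receptor, was at 4.79, 7.06 and 8.49 TPM in WT and 6.50, 11.9 and 13.2 in KO. Tsc22d3, the gene of the glucocorticoid-induced leucine zipper, was at 108, 113 and 116 TPM in WT and at 102, 67.0 and 43.8 in KO. KO libraries 2 and 3, which held the most Mt1 and Mt2, held the least Tsc22d3. It was the 1 member with an unadjusted limma p below 0.05 (0.0315, adjusted 0.993), in the direction of 0.385% of all genes. Tat, the tyrosine aminotransferase, was lowest in KO library 3 at 363 TPM and between 789 and 1211 in the other 5.

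Of 21 interleukin-6 and acute phase genes, 20 lay above 0 with a median of +0.24, or 17 with a median of +0.14 after median-ratio scaling. Socs3, the feedback inhibitor of interleukin-6 signalling, was at 1.43, 1.59 and 0.645 TPM in WT and 1.79, 2.12 and 3.12 in KO, with an unadjusted limma p of 0.0368 (adjusted 0.993). Lbp, the lipopolysaccharide-binding protein gene, was at 24.5 ± 9.65 and 41.1 ± 16.4 TPM (SD, n = 3 each). The fibrinogen gene Fgg, the most abundant of the list, was highest in KO library 3 at 3491 TPM, where Mt2 was also highest, and at 1391 to 2062 in the other 5. Mt1 was highest in KO library 2, where Fgg was at 1858 TPM. The members did not share one order of libraries. Hamp, the 1 gene below 0, was at 2262, 3184 and 941 TPM in WT and 788, 3576 and 1120 in KO. Hp was highest in WT library 1 at 2341 TPM and lowest in WT library 3 at 1364 TPM. Of 11 tested NRF2 targets 8 were below 0 with a median of -0.08, 0 had an unadjusted limma p below 0.05, and Gstm1, a glutathione transferase, was at 665 ± 157 and 571 ± 155 TPM (SD, n = 3 each). The part of these inputs in the metallothionein values was not tested.

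The summed levels of markers of other cells overlapped between the labels in the 10 lists examined, but single markers did not all overlap. Cholangiocyte markers, nearly all from Spp1, summed to 24.9 to 35.3 TPM in WT and 34.9 to 56.2 in KO, with 0 of 5 at 0 throughout. Spp1 itself was at 33.2, 29.9 and 22.1 TPM in WT and 45.6, 52.8 and 31.7 in KO (unadjusted limma p 0.0347, adjusted 0.993). Of all tested genes, 2.76% were higher in KO at an unadjusted limma p below 0.05. The groups of Spp1 no longer overlapped after median-ratio scaling, with KO higher, as in 3.44% of all genes. Epcam, of the same list and too low to be tested, was at 0.508 to 0.856 TPM in WT and 0.905 to 1.56 in KO. Among stellate cell markers the collagen genes also had every KO library above every WT library, as 8.23% of all tested genes did. Col3a1 was at 7.27, 7.72 and 6.39 TPM in WT and 11.9, 8.03 and 9.32 in KO (unadjusted limma p 0.0464, adjusted 0.993), and Col1a1, too low to be tested, at 0.572 to 0.860 and 0.928 to 1.43. These 4 markers had higher means in KO, as Mt1 and Mt2 did, and median-ratio scaling made Epcam, Col3a1 and Col1a1 overlap. The other markers of the cholangiocyte and stellate lists overlapped. Among them Sox9 differed by +0.03, Lrat by +0.04, Dcn by +0.18 and Des by +0.16, and Krt19 and Krt7 were too low to be tested. Stellate cell markers summed to 99.1 to 124 and 121.5 to 139 TPM, Kupffer cell and macrophage markers to 189 to 262 and 234 to 251.5, and endothelial markers to 88.4 to 95.8 and 90.7 to 102.5. Red cell genes summed to 634 to 1048 TPM in WT and 798 to 1830 in KO, highest in KO library 2. T and NK, B and plasma, and neutrophil markers stayed at or below 7.80 TPM, and 4 of 5 pancreas markers were at 0. The remaining one, Cela1, was at 54.5 to 87.8 TPM. In whole liver, fewer cells of a type and less RNA per cell cannot be told apart. The part of these cells in the values of the 7 genes was not tested.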

How the data were processed

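The authors deposited 1 table of TPM for 54600 genes in 6 mouse liver libraries; all columns sum to the same total. Per the labels' protocols, TRIzol was used for RNA extraction and an NEB kit for the libraries. The build mm10 and the tools HISAT2, featureCounts, fastp, limma and DESeq2 are named per the submitters' processing notes; versions, roles and strand setting are not given in the sources used here. How reads shared between close paralogs were handled therefore cannot be told.

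Of 54323 Ensembl identifiers, 51492 matched a symbol in GENCODE M21, which is on the build of mm10. A gene was tested if 3 or more libraries had 1 TPM or more (11440 genes), on log2(TPM + 1) with limma 3.58.1 in R 4.3.3, with a variance trend, two-sided, and Benjamini-Hochberg adjustment (threshold 0.05). The scale understates changes of low genes. The fit was checked on simulated data, drawn independently for each gene and library. That check did not cover a shift common to a library. All 7 members passed the filter. The members and lists were chosen with earlier results of these data known. Named genes are the members, Epas1, up to 4 genes of highest mean and 3 of smallest p per list, and the nearest profiles (6 for Mt1, 3 for Slc30a10, predicted genes left out). Col1a1, Slc30a8 and Slc39a5 were added after their values were seen.

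Spearman correlations between libraries were 0.945 to 0.978. Each library was used as 1 replicate, although these correlations cannot show whether the libraries are separate animals. Deviations of same-numbered libraries from their label means correlated at 0.157, 0.408 and 0.381, each over 0.1, so the numbers were treated as a possible pairing; this comes from the data, not the labels. The fit without the block is the one reported. Promoters came from RefSeq (GRCm38.p6); 1 hepatocyte marker symbol, Tf, had no match. Alternatives were other pseudocounts (0.1, 5), filters (none, 5 TPM), scalings, variance models, the block, and leaving out libraries.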

Additional observations from a re-analysis of the deposited data

How the results depend on the processing

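Under all 20 alternatives, 0 of the 7 genes and 0 of the other zinc transporters passed the adjusted threshold. Mt1, Mt2, Slc39a4 and Slc39a14 kept a positive difference in each, from 0.99 to 2.07, 0.62 to 2.04, 0.27 to 0.69 and 0.13 to 0.44, and the smallest adjusted p of any of these 4 was 0.724, with the replicate block. The block changed no call on the 7 genes. Mtf1 turned to -0.071 under median-ratio scaling, with or without the replicate block, to -0.10 under quantile normalization and to -0.039 when TPM left out mitochondrial genes and the 20 genes of highest mean. Slc30a1 turned to -0.064, -0.082 and -0.027 in these. Leaving out libraries gave -0.090 to 0.13 for Mtf1, -0.20 to 0.26 for Slc30a1 and -0.33 to 0.23 for Slc30a10. The cause was not tested. Mtf1 was below the filter of 5 TPM and has no value there.

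Over all tested genes, 1 passed the threshold, and 0 did with a pseudocount of 5, with no filter or one of 5 TPM, under quantile normalization, and with the replicate block alone or with median-ratio scaling. Leaving out libraries gave 0 to 2. The unadjusted count of 360 genes became 707 with the replicate block. Its split of 316 higher and 44 lower was 147 and 147 under median-ratio scaling. Depth is unknown, so its limit on low genes such as Slc30a8 cannot be stated.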
